A study of Caenorhabditis elegans with 2 samples.

Results

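RNT-1 is the RUNX transcription factor of the nematode Caenorhabditis elegans, and the peaks described here are those of tagged RNT-1 that lay at general noncoding RNA genes and away from promoters of protein-coding genes. A peak was taken when its summit was within 500 bp of the start of a gene that Ensembl gives the biotype ncRNA. The summit also had to be more than 500 bp from every protein-coding transcript start and from every tRNA, snoRNA, snRNA and miRNA gene start. Of 5560 peaks, 517 met the rule (9.30%, exact Clopper-Pearson 95% interval 8.55 to 10.1%). They are called ncRNA peaks below. Within the peak list the rule used positions and no measured signal, but the peaks themselves are the pooled regions of highest signal. All intervals on shares cover counting error only.

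Chromatin immunoprecipitation with sequencing (ChIP-seq) was done on whole hermaphrodite larvae of the first stage (L1), collected 6 h after synchronization, which itself followed bleaching and starvation. The strain, OP462, has the genotype unc-119(tm4063) III; wgIs462 and stably expresses rnt-1 with a C-terminal GFP-FLAG tag, and immunoprecipitation used an anti-GFP antibody. There were 2 biological replicates in 1 group, with no second genotype, stage or treatment, so regions were compared with other regions and replicate with replicate, and no test between conditions was possible. The labels also name a control experiment, which was not analysed here, and no background level could be set beside the signals. Transgene and unc-119 allele were shared by both replicates, and whole animals mix all cell types, so a signal cannot be placed in a tissue. The deposited lists give regions without read numbers, so the depth of each replicate is unknown.

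RUNX proteins bind DNA through the Runt domain, with a partner of the CBF beta family, at short sites whose core reads TGTGGT or TGCGGT. In C. elegans, rnt-1 is known from genetics for its role in the divisions of the lateral seam cells of the epidermis and in the male tail. The biotype ncRNA gathers what is left once tRNA, rRNA, snRNA, snoRNA, miRNA, piRNA, lincRNA and antisense RNA genes are set apart. It holds a few well-studied RNAs, such as the RNA subunits of RNase P and of the signal recognition particle, and a great many short transcripts known only by a sequence name.

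The sequences below show what lay under the 6 strongest ncRNA peaks, under 3 of the 7 that held 2 RUNX cores, and under one with a long GA run. Each line is 101 bases of the plus strand of the RefSeq copy of WBcel235 (the same sequence as ce11), with the summit at the middle base. Capitals mark RUNX cores on either strand in all lines but the last. The first 6, strongest first, are at III:9868270-9868370, III:4899898-4899998, V:10715916-10716016, X:6743986-6744086, V:10537017-10537117 and V:6224613-6224713.
ZK757.7: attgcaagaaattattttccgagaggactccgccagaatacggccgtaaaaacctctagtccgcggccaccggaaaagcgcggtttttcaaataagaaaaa
F26F4.14: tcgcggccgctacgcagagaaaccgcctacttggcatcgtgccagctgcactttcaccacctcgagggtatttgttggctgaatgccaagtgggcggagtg
T28B11.18: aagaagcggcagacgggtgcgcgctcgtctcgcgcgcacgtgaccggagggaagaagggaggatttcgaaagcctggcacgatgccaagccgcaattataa
R03E9.7: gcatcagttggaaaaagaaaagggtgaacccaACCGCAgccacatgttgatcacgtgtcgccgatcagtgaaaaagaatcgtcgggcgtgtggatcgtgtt
F25D1.11: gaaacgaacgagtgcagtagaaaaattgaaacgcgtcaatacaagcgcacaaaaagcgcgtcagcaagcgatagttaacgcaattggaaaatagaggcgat
W06H8.16: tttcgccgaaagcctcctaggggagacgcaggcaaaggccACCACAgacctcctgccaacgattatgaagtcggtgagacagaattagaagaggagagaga
The next 3 lines, at X:3914478-3914578, X:16363819-16363919 and V:6901299-6901399, each hold 2 RUNX cores. W09B12.2 and K11C4.12 carry the core TGTGGT once on each strand, and T22B2.12 carries 1 of each form.
T22B2.12: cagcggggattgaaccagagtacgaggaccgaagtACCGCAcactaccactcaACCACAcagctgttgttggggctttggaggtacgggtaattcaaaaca
W09B12.2: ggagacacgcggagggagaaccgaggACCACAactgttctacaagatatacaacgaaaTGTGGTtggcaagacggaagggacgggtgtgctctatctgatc
K11C4.12: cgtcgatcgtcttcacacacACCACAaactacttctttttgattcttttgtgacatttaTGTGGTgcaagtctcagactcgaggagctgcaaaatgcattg
The last line, at X:2536598-2536698, holds 9 overlapping matches to GAGAGAG on either strand, and there the capitals mark those matches.
F52H2.13: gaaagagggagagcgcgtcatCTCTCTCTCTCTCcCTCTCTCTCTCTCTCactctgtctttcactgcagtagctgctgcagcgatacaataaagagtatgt

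The RUNX core, either form, was about as frequent at ncRNA peaks as at peaks in general. A core lay within 50 bp of the summit at 50 of the 517 ncRNA peaks (9.67%, exact interval 7.26 to 12.6%), against 10.1% of all peaks. Of the 1494 candidate regions that met the same position rule but fell below the peak threshold, 8.77% held a core (exact interval 7.38 to 10.3%). That interval overlapped the one at ncRNA peaks. Without the rule the intervals did not overlap, with a core at 10.1% of all peaks (9.31 to 10.9%) and 7.06% of all below-threshold candidates (6.74 to 7.39%). From each replicate's own list of its strongest 5560 regions the shares at ncRNA peaks were 10.4% in replicate 1 and 9.13% in replicate 2. Density at the ncRNA summits was 1.15 cores per kb, and 0.575 per kb in the flanks 200 to 500 bp away, a ratio of 2.00, beside a ratio of 2.06 over all peaks. The ratio was 1.61 at the below-threshold candidates under the same rule and 1.31 over all below-threshold candidates. By form of the core, TGCGGT was at 5.80% of ncRNA peaks (3.95 to 8.18%), against 2.28% of the below-threshold candidates under the same rule (1.58 to 3.17%) and 3.52% of the other peaks away from promoters (2.77 to 4.40%); over all peaks it was 4.604%, inside the interval of the ncRNA peaks. TGTGGT was at 4.64% of ncRNA peaks (2.997 to 6.83%), against 6.69% of those candidates (5.48 to 8.08%), 5.80% of the other peaks away from promoters and 5.76% of all peaks, with overlapping intervals. The difference between the forms was not tested. The ratio of summit to flank density was 3.14 for TGCGGT and 1.42 for TGTGGT at ncRNA peaks, beside 2.77 and 1.71 over all peaks. A match is a description of the letters and not of binding.

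Of the motifs searched, runs of GA had the widest gap in percentage points between ncRNA peaks and the candidates below the threshold. GAGAGAG, on either strand, lay within 50 bp of the summit at 86 ncRNA peaks (16.6%, exact interval 13.5 to 20.1%). It was at 6.69% of the below-threshold candidates under the same rule (5.48 to 8.08%). A gap was also seen without the rule, with 13.8% of all peaks (13.0 to 14.8%) against 3.63% of all below-threshold candidates (3.40 to 3.88%). Peaks away from promoters with no ncRNA start nearby held it at 16.3%, so it did not set the ncRNA peaks apart from those. In the replicates' own lists the shares at ncRNA peaks were 17.1% in replicate 1 and 16.3% in replicate 2, and at below-threshold candidates 6.25% and 7.02%. The E-box CACGTG was at 3.09% of ncRNA peaks (1.78 to 4.98%) and 1.27% of the below-threshold candidates under the same rule (0.767 to 1.98%). It was at 4.64% of all peaks and at 5.99% of the other peaks away from promoters (5.02 to 7.09%). The box A start TGGCNNAGT was at 6 ncRNA peaks (1.16%, against 2.28% of all peaks) and the box B core GGTTCGA at 3 (0.580%, against 1.51%), both from the internal promoter of RNA polymerase III genes such as tRNAs, whose surroundings the rule left out. Median GC content over the 101 bases was 47.5% at ncRNA peaks, 42.6% at the below-threshold candidates and 46.5% over all peaks. The part of GC content in these shares, TGCGGT included, was not tested.

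Close to ncRNA starts, a larger share of candidate regions reached the peak list than elsewhere outside promoters. The authors' pooled list holds 30000 candidates, of which 18.5% are peaks. Under the ncRNA rule 517 of 2011 candidates were peaks (25.7%, exact interval 23.8 to 27.7%). Of 18176 candidates equally far from protein-coding and small RNA starts but with no ncRNA start within 500 bp, 2103 were peaks (11.6%, 11.1 to 12.04%). Near protein-coding starts 28.2% were peaks (27.3 to 29.1%). In replicate 1 alone the shares were 25.5% under the ncRNA rule, 11.5% without an ncRNA start and 28.2% near protein-coding starts. In replicate 2 alone they were 25.2%, 11.8% and 27.9%. The order was the same in both replicates, and the gap between the ncRNA rule and the other distal candidates was far wider than the gap between replicates.

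The share was lower the further the ncRNA start. It was 32.4% with the start at 0 to 100 bp from the summit, 25.3% at 101 to 250 bp, 16.7% at 251 to 500 bp, 14.99% at 501 to 1000 bp, 13.5% at 1001 to 2000 bp and 11.03% beyond 2000 bp. Replicate 1 gave 31.5% at 0 to 100 bp and 11.2% beyond 2000 bp, and replicate 2 gave 30.4% and 11.3%. Location within genes moved with this result. Coding exons made up 181 of the candidates under the ncRNA rule, of which 5 were peaks, and 7762 of the other distal candidates, of which 101 were peaks (1.30%). Among candidates outside protein-coding genes, 30.8% were peaks under the ncRNA rule (28.2 to 33.6%) and 24.0% among the other distal ones (22.9 to 25.2%). In introns 24.1% were peaks under the ncRNA rule (20.9 to 27.6%) and 14.5% among the others (13.5 to 15.6%). Outside protein-coding genes the share was 36.7% at 0 to 100 bp (32.5 to 41.0%) and 31.6% at 101 to 250 bp (26.9 to 36.6%). It was 18.8% at 251 to 500 bp (14.3 to 24.0%) and 24.2% beyond 2000 bp (22.9 to 25.5%), so there the higher share was seen within 250 bp of the start and not out to the full 500 bp.

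**Figure D1:**
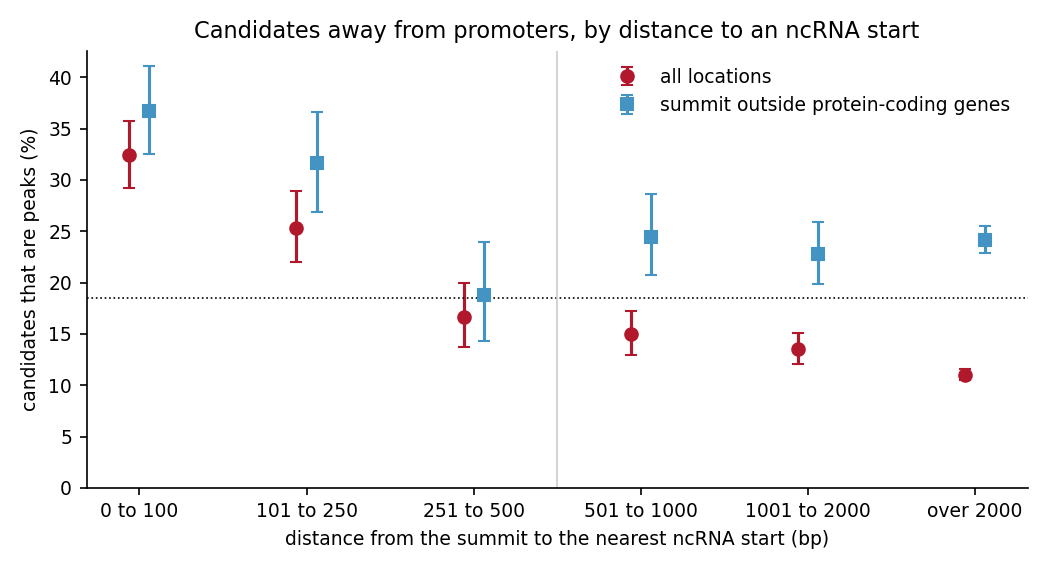
Share of candidate regions that are peaks (y axis, percent) by distance from the summit to the nearest ncRNA start (x axis, bp), among candidates over 500 bp from protein-coding and small RNA starts; points are shares, bars exact 95% intervals, the dotted line is the 18.5% of all candidates and the grey line the 500 bp limit. Over all locations the share is 32.4% at 0 to 100 bp and 11.03% beyond 2000 bp, and for summits outside protein-coding genes 36.7% and 24.2%.

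Summits gathered around the annotated start of the ncRNA genes, on both sides of it. Distances to the middle or the 3' end of these short genes (median length 140 bp) were not measured. Gathering at the start therefore cannot be told from gathering at the whole gene. The median distance to the nearest ncRNA start was 98 bp at ncRNA peaks and 154 bp at the below-threshold candidates under the same rule. A summit lay within 100 bp of the start at 262 ncRNA peaks (50.7%, 46.3 to 55.1%), against 36.6% of the below-threshold candidates (34.2 to 39.1%). From the replicates' own lists these shares were 249 of 498 at ncRNA peaks and 37.2% below the threshold in replicate 1, and 47.0% and 36.3% in replicate 2. The 100 bases that begin at the start held 163 summits, the 100 bases before it 98, and the next 100 bases into the gene 79.

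A smaller share of ncRNA peaks than of below-threshold candidates sat upstream of the ncRNA gene. The summit was upstream of the start at 210 ncRNA peaks (40.6%, 36.4 to 44.99%), against 48.2% of the below-threshold candidates (45.6 to 50.8%). It was inside the gene at 211 (40.8%, 36.5 to 45.2%), against 28.3% (26.0 to 30.7%), and past its end at 96 (18.6%), against 23.5%. Among ncRNA peaks the inside share was 43.5% for summits outside protein-coding genes (38.3 to 48.8%) and 34.6% in introns (27.2 to 42.6%). The below-threshold candidates were not split in this way, and the part of location in these gaps was not tested. Peaks near protein-coding starts were upstream of the start at 85.2%. In replicate 1 alone, 42.2% of ncRNA peaks and 48.5% of below-threshold candidates were upstream, and 40.8% and 28.2% inside. In replicate 2 alone, 39.1% and 49.7% were upstream, and 40.7% and 26.8% inside. Median shifts between the pooled summit and the replicate summits were 9 bp in replicate 1 and 10 bp in replicate 2, small beside the 140 bp median length of ncRNA genes. The ncRNA gene nearest to 36 ncRNA peaks (6.96%) has a partner annotated at the same coordinates on the other strand. Inside is then the same for both of the pair. A summit outside the pair is always upstream of the nearer start and never past the end. The share of such pairs at the below-threshold candidates was not counted.

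**Figure D2:**
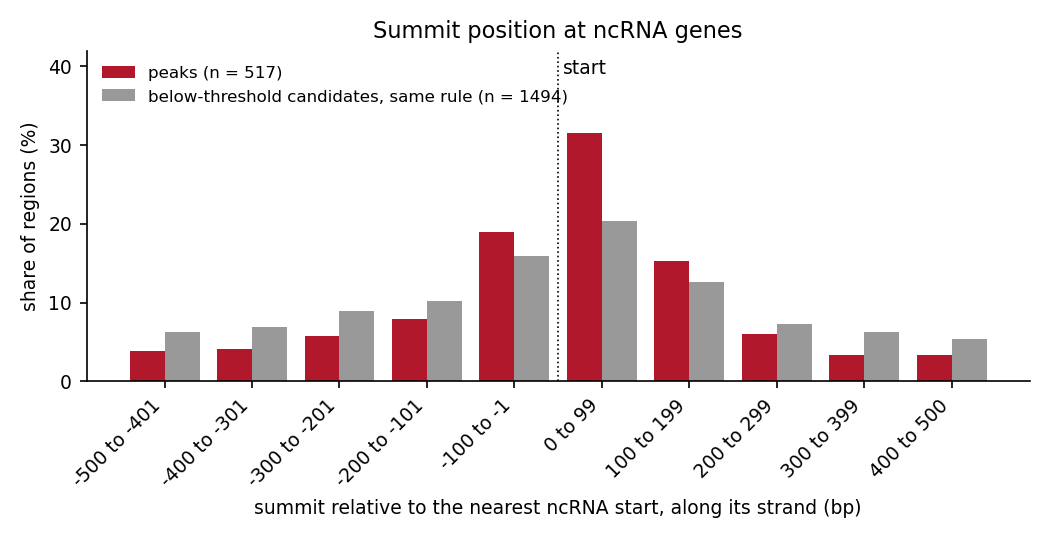
Share of regions (y axis, percent) by position of the summit relative to the nearest ncRNA start along its strand (x axis, bp, bins of 100), for 517 ncRNA peaks and 1494 below-threshold candidates under the same rule; the dotted line is the start. The bin from 0 to 99 holds 31.5% of the peaks and 20.4% of the candidates, and the outer bins hold larger shares of the candidates.

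Most ncRNA peaks, like most peaks of the whole list, lay between protein-coding genes. The summit lay outside protein-coding genes at 354 (68.5%, 64.3 to 72.5%), in an intron at 156 (30.2%), in a coding exon at 5 and in a UTR at 2. The share outside protein-coding genes was 66.2% over all peaks, which lies inside that interval, 62.2% for the other distal peaks and 71.3% for peaks near protein-coding starts. The below-threshold candidates were outside at 53.1%, in introns at 32.9% and in coding exons at 11.8%. Median signal was 153 for intronic and 146 for intergenic ncRNA peaks, 90.7 for the 5 in coding exons and 344 for the 2 in UTRs. Distances to the nearest protein-coding start ran up to 14620 bp with a median of 1685 bp. That start was 501 to 1000 bp away at 142 ncRNA peaks and over 2000 bp away at 225.

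By chromosome, 175 ncRNA peaks were on X (33.8%, 29.8 to 38.1%), against 21.9% of all peaks. X also holds 2520 of the 7764 ncRNA genes, and 32.3% of the below-threshold candidates under the rule were on it. The share of candidates under the rule that were peaks was 26.6% on X and ran between 21.3% on V and 31.1% on I, so X was within the range of the autosomes. From the replicates' own lists 33.9% of ncRNA peaks in replicate 1 and 33.7% in replicate 2 were on X. Another peak had its summit within 1000 bp at 161 ncRNA peaks (31.1%, 27.2 to 35.3%), against 23.1% of all peaks.

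The peaks were spread thinly over the ncRNA genes. The 517 peaks named 496 different nearest ncRNA genes of 7764 (6.39%), and 694 ncRNA genes had an ncRNA peak within 500 bp. At 148 peaks 2 ncRNA starts lay within 500 bp and at 34 peaks 3 or more, so the gene named for a peak is the nearest and need not be the one concerned. The 7764 genes include those close to protein-coding or small RNA starts, around which the rule leaves out peaks. Counting every peak of the list, 1342 of the 7764 (17.3%) had a peak within 500 bp. Of 5463 ncRNA genes whose own start was over 500 bp from protein-coding and small RNA starts, 12.5% had any peak within 500 bp. The share was 8.75% for lincRNA genes (14 of 160), 4.69% for antisense RNA genes (3 of 64), 1.42% for pseudogenes and 0.973% for piRNA genes. By length it was 15.5% for ncRNA genes over 200 bp, 13.3% at 100 to 200 bp and 8.57% under 100 bp. It was 16.0% for genes outside protein-coding genes, 8.45% for those inside one on the opposite strand and 7.10% for those inside one on the same strand.

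Signal at ncRNA peaks was that of other distal peaks and below that of promoter peaks. The authors' signal is a linear value per region on a scale that the sources used here do not give, and it served only to rank and describe regions. Signal at ncRNA peaks ran from 71.6 to 2134 with a median of 148 (quartiles 97.6 and 251). The median was 145 at peaks away from promoters without an ncRNA start, 205 near protein-coding starts and 174 over all peaks. By quintile of all peaks, strongest first, 65, 95, 109, 130 and 118 ncRNA peaks fell in each, so 12.6% were in the strongest quintile (9.84 to 15.7%) and 22.8% in the weakest (19.3 to 26.7%). Near protein-coding starts 27.7% were in the strongest quintile.

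**Figure D3:**
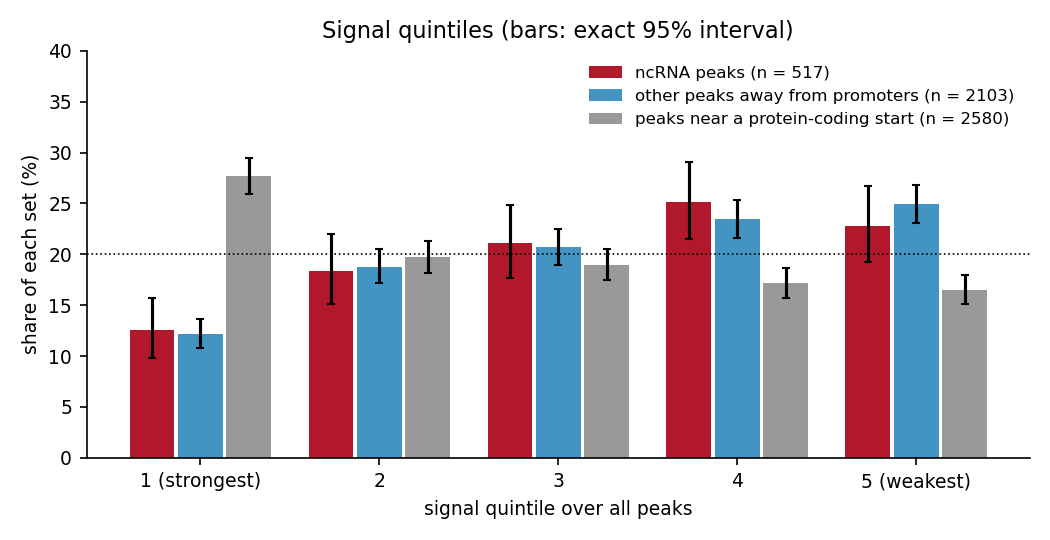
Share of each set (y axis, percent) in each signal quintile of all peaks (x axis, strongest first) for ncRNA peaks, other peaks away from promoters and peaks near a protein-coding start; bars are shares with exact 95% intervals and the dotted line is 20%. The strongest quintile holds 12.6% of the ncRNA peaks, 12.2% of the other distal peaks and 27.7% of the promoter peaks.

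The strongest ncRNA peak, with ZK757.7 as its nearest ncRNA gene, had a signal of 1138 in replicate 1 and 1012 in replicate 2 (1075 ± 88.4, SD, n = 2), and 2134 in the pooled list. Its summit lay 435 bp from the ncRNA start and past the end of that 128-bp gene, and the start of dhhc-4, which encodes a DHHC-type protein acyltransferase, was 528 bp away, just outside the limit. At F26F4.14 the signals were 720 in replicate 1 and 734 in replicate 2 (mean 727, coefficient of variation 1.38%), with the summit 2 bp into the gene. The protein-coding start of tag-340 was 560 bp from that summit. At T28B11.18 the signals were 638 in replicate 1 and 574 in replicate 2 (606 ± 45.3). The summit was 91 bp into the gene and in an intron of T28B11.1, which is on the opposite strand. It was 718 bp from the nearest start of T28B11.1. The coefficient of variation between replicates was under 10% at all 3, and these peaks ranked 27, 89 and 128 among all 5560.

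At R03E9.7 the signals were 587 in replicate 1 and 568 in replicate 2 (578 ± 12.9), 236 bp upstream of the start. R03E9.9, whose peak lies 127 bp upstream of its start, had 364 in replicate 1 and 319 in replicate 2. The nearest protein-coding start of both is mdl-1, which encodes a bHLH protein of the Mad family, 1685 bp from the summit at R03E9.7 and 1156 bp from that at R03E9.9. F25D1.11 had 471 in replicate 1 and 439 in replicate 2, 168 bp upstream of its start and 679 bp from the start of ppm-1.A. W06H8.16, a 56-bp gene on the same strand as its host W06H8.6, had 458 in replicate 1 and 318 in replicate 2 (388 ± 98.8), a wider spread than at the other 5 of the strongest 6.

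The rest of the strongest 20 had pooled signals between 566 at T23F11.10 and 750 at T04C10.8. The replicates were close at Y51H4A.939 (300.1 in replicate 1 and 302 in replicate 2) and T23F11.10 (288 in replicate 1 and 287 in replicate 2). They were furthest apart at Y40B1A.5, with 377 in replicate 1 and 215 in replicate 2 (coefficient of variation 38.7%). F58A3.6 lies in an intron of ldb-1, which encodes a LIM domain-binding cofactor, and F16A11.7 in an intron of ppfr-1, which encodes a regulatory subunit of protein phosphatase 4. ZK829.13, T28F4.7, T28B11.20, F09E10.14, K10H10.11, K02F2.11 and rpr-1 complete the 20. All 20 ranked in the top 5560 of both replicates.

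**Figure D4:**
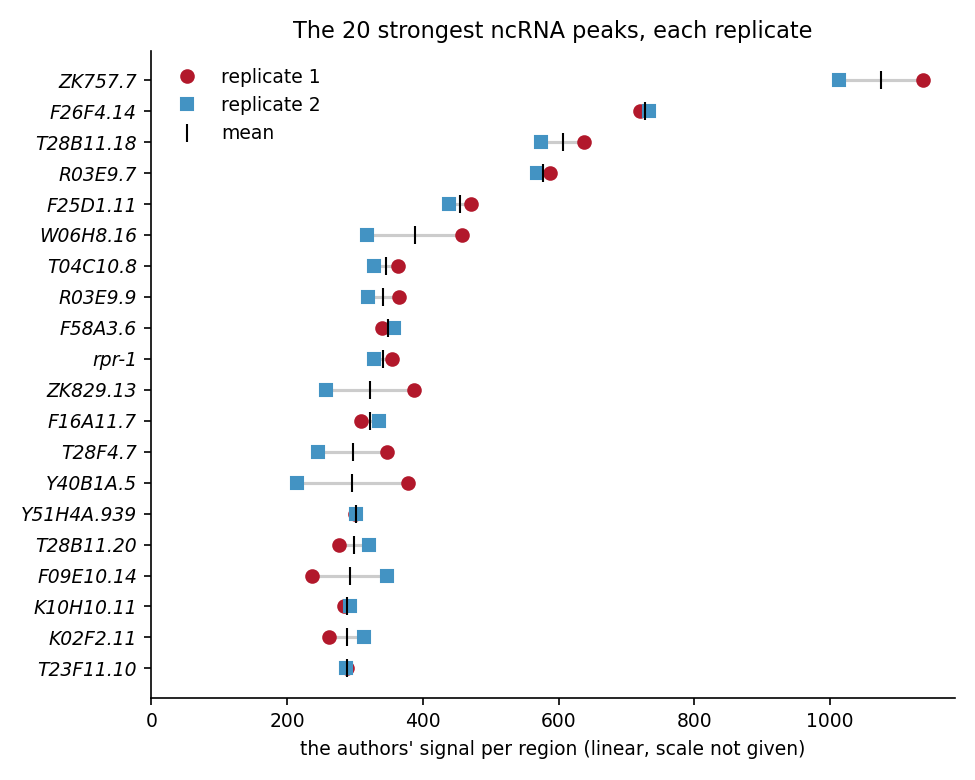
Signal (x axis, the authors' linear value, scale not given) of the 20 strongest ncRNA peaks, named by the nearest ncRNA gene, in replicate 1 and replicate 2, with the mean of both as a tick. ZK757.7 stands apart at 1138 in replicate 1 and 1012 in replicate 2, and Y40B1A.5 and ZK829.13 show wide gaps between replicates.

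Few ncRNA genes have a descriptive name, and those were treated as a list of 14. The RNA of RNase P, which trims the 5' ends of tRNA precursors, is encoded by rpr-1. Its peak was the tenth strongest ncRNA peak, with 354 in replicate 1 and 327 in replicate 2 (341 ± 18.8, SD, n = 2) and a summit 39 bp upstream of the start, at I:13463836-13464010 in an intron of ints-8, which encodes a subunit of the Integrator complex. At mrpr-1, the RNA of the related RNase MRP, a peak with 248 in replicate 1 and 299 in replicate 2 had its summit 38 bp from the start. It is not counted as an ncRNA peak under the rule, and a protein-coding start lies 316 bp from that of mrpr-1. Of the 5 signal recognition particle RNA genes, 2 had an ncRNA peak. At srpr-2.2 the signals were 106 in replicate 1 and 103 in replicate 2, 25 bp upstream of the start. At srpr-1.1 they were 57.2 in replicate 1 and 57.7 in replicate 2, with the summit 421 bp from the start and in a coding exon of pals-26. At srpr-1.2, srpr-2.1 and srpr-3 no candidate lay within 500 bp. The sources used here do not say how reads that match several copies were placed, so values at these near-identical genes are uncertain.

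The long noncoding RNA tts-1, known for its abundance in dauer larvae and long-lived mutants, had an ncRNA peak inside the gene with a signal of 45.9 in replicate 1 and 38.5 in replicate 2, its summit 375 bp from the start. A stronger peak 142 bp from the tts-1 start, with 237 in replicate 1 and 348 in replicate 2, is counted under F09E10.14, whose start is 15 bp from the summit. At tts-2 the signals were 87.5 in replicate 1 and 60.6 in replicate 2, 242 bp from the start. The starvation-induced RNA rncs-1, known as an inhibitor of Dicer, had 74.6 in replicate 1 and 51.5 in replicate 2, 204 bp from its start. The Y RNA gene yrn-1, whose product is bound by the Ro protein, had only a candidate below the peak threshold, with a pooled signal of 39.6 at 11 bp. At lfor-1 there was also only such a candidate, with 50.7 at 100 bp, and lfor-2 and linc-171 had no candidate within 500 bp.

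Replicates differed by a median coefficient of variation of 16.2% at ncRNA peaks, against 15.6% over all peaks. Of the 517, 372 ranked in the top 5560 regions of both replicates (72.0%, 67.9 to 75.8%), against 76.7% of all peaks, 71.3% of other distal peaks and 80.9% of peaks near protein-coding starts. By quintile of signal, strongest first, the median coefficient of variation was 9.71, 11.3, 15.1, 19.1 and 25.3% at ncRNA peaks, and 8.53, 13.5, 16.5, 20.9 and 24.3% over all peaks, so weak peaks varied more in both. A region was found in each replicate for 482 ncRNA peaks; 19 had none in replicate 1, 17 none in replicate 2, and 1 of these, at T10B10.11, none in either. The signals differed over 2-fold at 50 of the 482 (10.4%, 7.80 to 13.4%), against 8.01% of all peaks. The median ratio of replicate 2 to replicate 1 was 0.908 at ncRNA peaks and 0.895 over all peaks. Across the 482 peaks Spearman's rho between replicates was 0.804 and Pearson's r 0.939, a description over regions that share libraries and a threshold on their pooled signal.

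**Figure D5:**
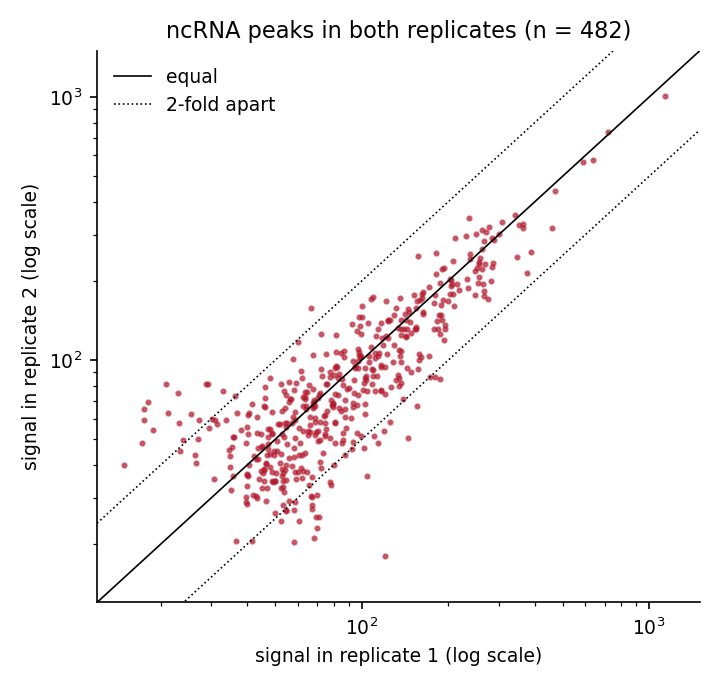
Signal in replicate 2 (y axis, log scale) against replicate 1 (x axis, log scale) for the 482 ncRNA peaks with a region in each replicate; the solid line is equality and the dotted lines a 2-fold difference. Strong peaks lie near the solid line, and the 50 peaks outside the dotted lines are mostly weak.

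The 5 largest differences in rank between replicates were at ZK867.15, F53A9.11, T28B11.5, C52G5.11 and C07G2.4. At ZK867.15 the signal was 14.9 in replicate 1 and 40.04 in replicate 2, and at F53A9.11 120.2 in replicate 1 and 18.0 in replicate 2. The other 3 had between 17.3 and 17.5 in replicate 1 and between 48.2 and 65.4 in replicate 2. The 5 weakest ncRNA peaks were at T22B2.8, K04G2.14, K08A8.4, T09A5.20 and C17E4.15, with pooled signals between 71.6 and 71.9. The strongest candidate left out of the peak list over the whole genome had 71.5.

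By annotated ID, 21 ncRNA genes were nearest to 2 peaks each and none to more. At R03E9.9 these had pooled signals of 691 and 234, at W06H8.16 784 and 132, and at K02F2.11 569 and 73.7. At F16A11.13 they were 251 each, on either side of the start. The others were C02F4.10, C11G6.6, C17E4.15, C36F7.19, C46C2.12, F44E5.14, F52B5.9, F52D10.9, M79.14, R09A8.7, T03G11.12, T09B4.16, T10B10.11, T12B3.8, T24B8.21, Y67D8A.9 and ZC190.11. Their pooled signals ran between 71.6 at C17E4.15 and 352 at C46C2.12.

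The ncRNA peaks inside protein-coding genes fell in 131 genes, of which 18 held 2 or more. T28B11.1 held 8 within its 20263 bp, with pooled signals between 81.9 and 1214. ppfr-1 and swah-1 held 5 each, and daf-16, kin-20 and pqn-62 held 3 each. daf-16 encodes the FOXO transcription factor of insulin signalling, and kin-20 a casein kinase 1 known as a developmental timing gene. Among genes with 2, the heterochronic gene lin-14 had 348 and 220, the Hox gene lin-39 81.5 and 77.1, and let-2, which encodes a type IV collagen chain, 194 and 154. The weakest ncRNA peak had 71.6, so both peaks in lin-39 were weak. These host genes were chosen after their values were seen. Peak counts per host were not set beside gene length or the number of ncRNA genes inside. Of the ncRNA genes nearest to a peak that lie within a protein-coding gene, 115 of 154 were on the opposite strand (74.7%, 67.0 to 81.3%), against 67.3% of all such ncRNA genes, which lies just inside that interval.

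At the limits of the rule, the ncRNA peaks just inside 500 bp of an ncRNA start were at Y69A2AR.38 (500 bp, pooled signal 191), T09B4.16 (496 bp, 98.0) and F57G12.4 (493 bp, 114). Just outside were peaks near T01H3.6 (503 bp, 121), R10E11.10 (508 bp, 1281) and T12B3.9 (511 bp, 184). Just beyond the limit to protein-coding starts were ncRNA peaks 501 bp from zyx-1 (199), 506 bp from epn-1 (749.6) and 506 bp from nac-3 (142). Peaks left out at 499 bp from C25D7.9 (282), 494 bp from acdh-7 (148) and 493 bp from ftt-2 (525) were on the other side. For small RNAs, ncRNA peaks were kept at 545 bp from the gene of mir-1, 576 bp from that of mir-52 and 638 bp from W01H2.11, and peaks were left out at 449 bp from lin-4, 446 bp from mir-58a and 427 bp from W01H2.11. Of all 5560 peaks, 1070 had an ncRNA start within 500 bp, and 341 of these were left out for a protein-coding start and 212 for a small RNA start alone.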

How the data were processed

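The deposited files are narrowPeak lists on ce11, by their names: 1 candidate list of 30000 regions for each replicate, 1 from the pooled replicates, and the optimal list of 5560 peaks set by the irreproducible discovery rate (IDR), whose peaks are the pooled regions of highest signal. Signal is a value per region in the lists the authors deposited. Its scale is not stated, and aligner and peak caller are likewise not given in the sources used here. Over the peaks, −log10 q as deposited lay between 3.07 and 3.97 and was not used further. Lists on ce10 were not used. Read depth is unknown.

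Genes came from Ensembl release 115 (WBcel235); 7763 of the 7764 ncRNA genes have the same coordinates in RefSeq. Summits and coordinates are counted from 1. Replicate values are those of the replicate region that contains the peak summit. Motifs were sought on both strands within 50 bp of summits. Python 3.11.15, numpy 2.4.6, pandas 2.3.3, scipy 1.17.1 and matplotlib 3.10.9 were used, and the position rule and motif search were tested on simulated data. With 1 group, shares have exact Clopper-Pearson 95% intervals and no test was run. Nothing in the labels says how the replicates were split beyond their being biological replicates.

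The members and lists were chosen with earlier results of these data known. Named genes were those at the 20 strongest peaks, at the 5 weakest, at the 5 largest rank differences, at the 3 peaks on either side of each limit, those with 2 or more peaks, and genes with a descriptive name; printed sequences beyond the strongest were chosen for their motif counts after these were seen.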

Additional observations from a re-analysis of the deposited data

How the results depend on the processing

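Of 63 recomputed values, 46 stayed within the interval, the replicate spread or 1.5 times of the value reported, and 17 moved. These values are counts, shares and medians, and their direction relative to all peaks was not scored. With both distance limits at 250 bp the share of candidates that are peaks was 30.9% and the median signal relative to all peaks 0.925, against 0.848 as reported; with both at 1000 bp they were 21.3% and 0.757, with 27.4% in the weakest quintile. In the stronger 2780 peaks there were 215 ncRNA peaks at 212 ncRNA genes, 10.7% of candidates were peaks, the relative median was 0.891, 94.0% were among the strongest regions of both replicates, the median coefficient of variation was 11.6% and 3.96% differed over 2-fold. By construction that list is shorter and stronger, and only 2780 of all 30000 candidates count as peaks in it. The shares for other distal candidates were not recomputed under these settings. Leaving out 1 replicate gave 498 to 504 ncRNA peaks, 478 to 489 ncRNA genes, a candidate share of 25.2 to 25.5%, a relative median of 0.851 to 0.873, 19.6 to 23.7% in the weakest quintile, 39.1 to 42.2% upstream and 9.13 to 10.4% with a RUNX core. With 50% reciprocal overlap as the match to replicates, 60.5% were among the strongest of both. A RUNX core was at 6.00% within 25 bp and 18.2% within 100 bp, above the 5.68% and 16.4% of all peaks. Within 50 bp it was at 9.67%, below the 10.1% of all peaks. TGTGGT alone was at 4.64%. Merging summits within 200 bp and removing regions near other noncoding or pseudogene starts moved none of these values, nor did counting summits from 0, which was chosen after seeing the data and gave 516 ncRNA peaks. No paired analysis was possible because there is 1 group. Depth is unknown, so its effect on weak peaks cannot be given.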
